A study of Mus musculus with 33 samples.

Results

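The 40 genes described here are cell cycle genes of the mouse: 12 that act in S phase, when DNA is copied, 26 that act in mitosis, when the chromosomes are pulled apart, and 2 chromatin genes, Hmgb2 and H2afz, that are abundant in dividing cells but belong to no single phase. They were chosen by name, but with earlier results of these data known, so the choice was not independent of these data. All 40 were found among the 18847 genes of the count files. The data are single-cell RNA sequencing of the neurogenic niche of the hippocampus, made by SORT-seq, a plate method with 1 sorted cell per well, which reads a tag at the 3' end of each transcript and counts molecules by unique molecular identifiers (UMIs). The libraries comprise 1 from mice older than 12 months, 1 of GFP-positive hippocampal cells of NestinGFP mice, in which the Nestin promoter drives the reporter, and 31 niche libraries from 5 numbered experiments. All mice are labelled wild-type and C57BL/6, and the old and niche libraries come from hippocampus from which neurons had been depleted. Per the labels, which carry the same sorting text for all 33 libraries, the sorted cells were live and negative for antibodies against GluR1, carried by neurons, and Cd24, carried by neuroblasts, so the sort itself takes out part of the neuroblasts. Neither the age of the niche mice nor the number of mice in an experiment is given in the labels.

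A dividing cell makes its cell cycle transcripts in waves. Before and during S phase the E2F factors switch on genes for the replicative helicase, for the supply of nucleotides and for the clamp that holds DNA polymerase on its template. Later, in G2 and mitosis, genes for cyclin B, mitotic kinases, the spindle and the anaphase promoting complex are switched on, and their transcripts and proteins are removed as the cell divides. In the adult dentate gyrus, radial glia-like stem cells divide rarely, the Eomes-positive intermediate progenitors they give rise to divide several times, and the neuroblasts that follow leave the cell cycle and become granule neurons. Oligodendrocyte precursors are the other neural cells of the adult brain that keep dividing, whereas mature oligodendrocytes do not divide and resting microglia rarely do.

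The S phase genes comprised 6 genes of the Mcm helicase (Mcm2 to Mcm7), 4 genes of nucleotide supply (Rrm1, Rrm2, Tyms and Tk1) and 2 genes of the clamp (Pcna and its partner 2810417H13Rik, also called Pclaf). The mitosis genes comprised 8 cyclins and kinases with their partners (Cdk1, Ccna2, Ccnb1, Ccnb2, Cks2, Plk1, Aurka and Pbk), 3 genes of the chromosomal passenger complex (Aurkb, Birc5 and Cdca8), 6 genes of the spindle checkpoint and the anaphase promoting complex or tied to it (Bub1, Bub1b, Cdc20, Ube2c, Cdca3 and Fam64a), 7 genes of the spindle, the kinetochore and cytokinesis (Tpx2, Kif11, Kif23, Nusap1, Prc1, Racgap1 and Cenpf) and 2 genes of chromosome structure (Mki67 and Top2a).

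Promoter sequence is shown first, because the timing of these genes is known to be set there. Late cell cycle promoters carry the cell cycle genes homology region (CHR), bound by the MuvB complex with B-Myb or FoxM1, and CCAAT boxes, bound by NF-Y, while early ones carry E2F sites. The windows below are the 250 bases before the RefSeq start of transcription (GRCm38.p6), written 5' to 3' on the gene's own strand. Capitals mark matches, on either strand, to the CHR, searched in its usual form TTTGAA and in a second form found in some promoters, TTCGAA, to the CCAAT box, searched by the letters of its name, or to an E2F word (TTTCCCGC, TTTGGCGC, TTTCGCGC, TTTGCCGC, TTCCCGCC, TTGGCGCC, TTCGCGCC or TTGCCGCC). Top2a (topoisomerase II alpha, which untangles chromosomes; chr11:99024190-99024439, minus strand), Ube2c (the ubiquitin-conjugating enzyme of the anaphase promoting complex; chr2:164769679-164769928, plus strand) and Cdk1 (the kinase that drives entry into mitosis; chr10:69352913-69353162, minus strand) stand for the mitosis genes. Mcm6 (chr1:128359706-128359955, minus strand) and Mcm5 (chr8:75109259-75109508, plus strand), both subunits of the helicase, stand for the S phase genes.
Top2a: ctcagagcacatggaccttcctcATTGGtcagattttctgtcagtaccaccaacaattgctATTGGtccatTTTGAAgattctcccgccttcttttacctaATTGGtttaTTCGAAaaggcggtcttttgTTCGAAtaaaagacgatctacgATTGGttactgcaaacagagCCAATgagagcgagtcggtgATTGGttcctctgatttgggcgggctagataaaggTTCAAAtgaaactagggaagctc
Ube2c: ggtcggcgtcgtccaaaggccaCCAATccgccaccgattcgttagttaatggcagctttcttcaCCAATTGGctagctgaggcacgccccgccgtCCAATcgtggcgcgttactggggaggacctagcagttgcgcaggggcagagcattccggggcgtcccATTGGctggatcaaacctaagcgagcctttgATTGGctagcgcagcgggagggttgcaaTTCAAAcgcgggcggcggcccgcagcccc
Cdk1: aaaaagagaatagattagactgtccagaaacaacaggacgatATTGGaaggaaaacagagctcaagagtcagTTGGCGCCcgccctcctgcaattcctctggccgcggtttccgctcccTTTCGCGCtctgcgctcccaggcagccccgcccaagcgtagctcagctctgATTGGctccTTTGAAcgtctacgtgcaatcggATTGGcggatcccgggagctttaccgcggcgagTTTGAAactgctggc
Mcm6: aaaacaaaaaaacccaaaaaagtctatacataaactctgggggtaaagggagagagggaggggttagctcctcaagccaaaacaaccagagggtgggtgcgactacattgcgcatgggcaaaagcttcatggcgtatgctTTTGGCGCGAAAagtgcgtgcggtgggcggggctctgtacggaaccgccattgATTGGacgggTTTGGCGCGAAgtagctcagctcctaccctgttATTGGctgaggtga
Mcm5: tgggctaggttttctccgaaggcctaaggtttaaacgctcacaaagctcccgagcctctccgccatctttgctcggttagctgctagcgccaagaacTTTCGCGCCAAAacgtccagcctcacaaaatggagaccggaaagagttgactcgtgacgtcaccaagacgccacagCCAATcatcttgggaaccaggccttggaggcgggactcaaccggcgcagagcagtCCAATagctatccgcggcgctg

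The Top2a window held 4 CHR and 6 CCAAT matches and no E2F word, and the Ube2c window 1 CHR and 6 CCAAT matches and no E2F word. The Cdk1 window held every kind, with 2 CHR, 3 CCAAT and 2 E2F matches. The windows of Mcm6 and Mcm5 held no CHR match, 2 CCAAT matches each, and 5 and 3 E2F matches, some of which overlap one another. RefSeq promoter windows (250 bases before to 50 after the start) were at hand for 34 of the 40 genes, 11 of the 12 S phase genes and 21 of the 26 mitosis genes; those of Mcm4, Ccna2, Pbk, Aurkb, Fam64a and Tpx2 were not used here. A CHR match lay in 17 of the 21 mitosis genes (81.0%) and in 2 of the 11 S phase genes (18.2%), against 21.7% of 27025 genes with a window. An E2F word lay in 2 of the 21 mitosis genes (9.52%; Cdk1 and Ccnb1) and in 6 of the 11 S phase genes (54.5%), against 5.98% of all genes. CCAAT boxes lay in 90.5% of the mitosis genes and 81.8% of the S phase genes, against 41.1% of all genes. Overlaps between different motifs were rare among the members: 1 base of a CHR and a CCAAT box in Cdca8, and 2 and 4 bases of an E2F word and a CCAAT box in Mcm7 and Ccnb1. These matches describe letters in a window and say nothing of binding in these cells.

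Wells with 1000 or more transcripts were taken as cells: 1285 of 3840 niche wells, 138 of 384 in the old library and 315 of 384 in the Nestin-GFP library. Experiments 1 to 5 gave 435, 381, 155, 141 and 173 cells, with medians of 3526, 6121, 4055, 12392 and 1943 transcripts per cell. Cells were clustered on cell type markers alone, none of them a cell cycle gene, and those markers were left out of the tests. Every class name below means that its clusters resemble that type by its markers. The progenitor and neuroblast class (228 niche cells) had 2 clusters, one led by Eomes, Neurog2 and Draxin (94 cells, called early progenitors here) and one led by Neurod1, Neurod2, Stmn2 and Calb2 (134 cells, called late neuroblasts). The other classes used were oligodendrocyte precursors (273 cells), astrocytes (218) and neural stem cell-like cells (58), which together form the astrocyte lineage (276), mature oligodendrocytes (68) and microglia (289). An experiment entered a class with at least 5 cells, and its cells were summed into 1 value, in CPM, counts scaled to the same total in every sum. Since each transcript gives 1 tag at its 3' end, CPM does not grow with the length of a transcript. In such sums, fewer cells in cycle and less RNA of a gene per cell cannot be told apart. Nothing in the labels says that the experiments are separate animals. Since classes were paired by experiment, p-values measure how class differences vary from experiment to experiment, not a spread between animals.

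Summed by phase, the cell cycle genes were highest in the early progenitors. The 12 S phase genes summed to 5920, 2489, 3599 and 3132 CPM in early progenitors of experiments 1, 2, 3 and 4, a mean of 3785 ± 1494 CPM (SD, n = 4). The 26 mitosis genes summed to 8938, 2634, 4742 and 4737 CPM in the same cells, a mean of 5263 ± 2644 CPM. Every experiment of the early progenitors lay above every experiment of the other 6 classes on both sums. In late neuroblasts the S phase sum was 521 ± 68.5 CPM and the mitosis sum 485 ± 180 CPM (n = 5). The same sums were 587 ± 106 and 335 ± 171 CPM in oligodendrocyte precursors (n = 5) and 622 ± 129 and 408 ± 149 CPM in microglia (n = 5). Neural stem cell-like cells had 371 ± 27.3 and 409 ± 251 CPM (n = 4). Mature oligodendrocytes had 473 ± 157 and 298 ± 343 CPM (n = 3), and astrocytes 290 ± 82.2 and 248 ± 125 CPM (n = 5). Single genes did not all follow the sums: Kif11, the motor that pushes spindle poles apart, averaged 144 ± 111 CPM in early progenitors, 175 ± 168 CPM in neural stem cell-like cells and 168 ± 231 CPM in mature oligodendrocytes. Among these 6 classes the ranges of the mitosis sum overlapped in every neighbouring pair. The 3 early progenitors of experiment 5, too few for a value of their own, gave 7430 CPM of S phase and 9665 CPM of mitosis transcripts. Blood and lymphoid cells (40 cells), a class not compared here, had 926 ± 213 and 659 ± 492 CPM (n = 3), above the means of these 6 classes. Their highest experiments reached 1158.5 CPM of S phase and 1182.8 CPM of mitosis transcripts, below every experiment of the early progenitors.

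**Figure D1:**
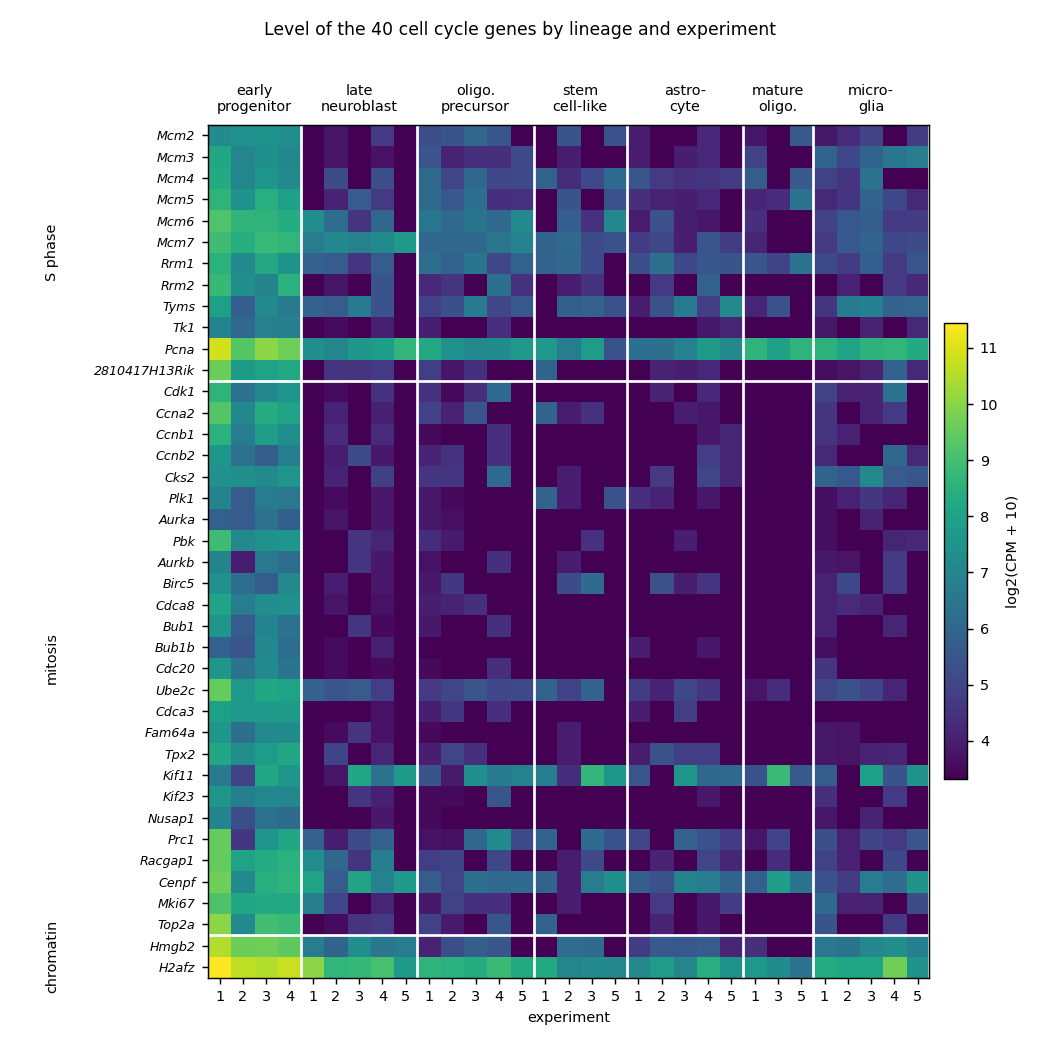
Level of each of the 40 genes (rows, grouped as S phase, mitosis and chromatin genes) in each experiment with at least 5 cells of a class (columns), as log2(CPM + 10). The 4 early progenitor columns are bright for nearly all rows, while in the other classes the bright cells are mostly Pcna, H2afz, Kif11 and Cenpf.

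**Figure D2:**
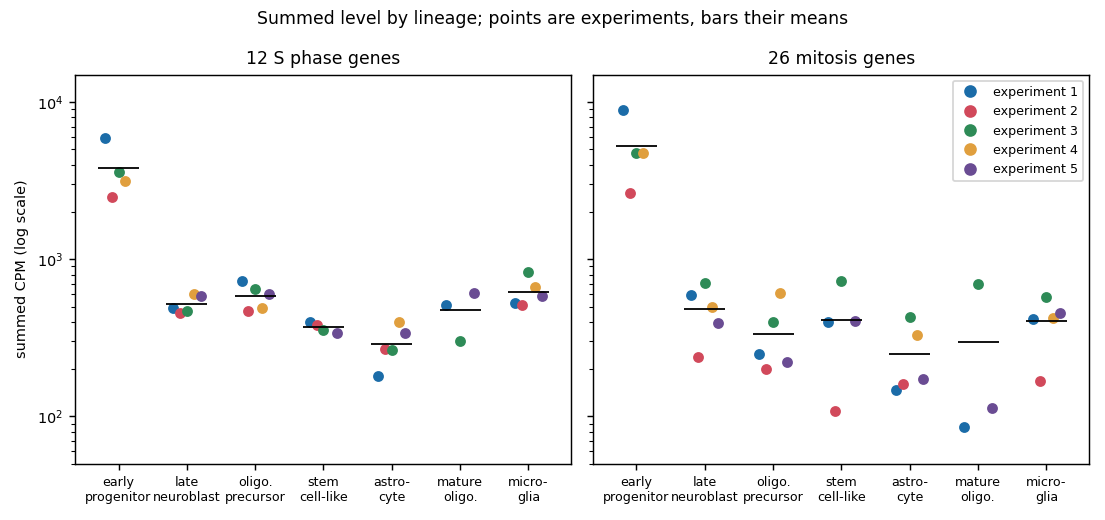
Summed CPM (log axis) of the 12 S phase genes and of the 26 mitosis genes in each class. Each point is 1 experiment and each bar the mean over experiments. Early progenitors average 3785 CPM of S phase and 5263 CPM of mitosis transcripts, and the other classes compared here lie below 1000 CPM on both sums. Blood and lymphoid cells are not among these classes.

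Progenitors and neuroblasts as one class were compared with the astrocyte lineage, a class of 218 astrocytes and 58 neural stem cell-like cells. Progenitors arise from stem cells, whereas most cells of this class resemble astrocytes, so the class does not stand for the parent cells. Nearly all members were higher in progenitors and neuroblasts, the S phase genes as well as the mitosis genes, and none was lower. Of the 40 genes, 22 passed the filter on low counts, and 20 of these were higher, against 23.6% of 4682 genes tested (edgeR's quasi-likelihood test with the experiment as a block, Benjamini-Hochberg adjusted p under 0.05, n = 5 experiments). Because a gene can pass that filter through the class where it is high, the fit was also made with no filter: 38 of all 40 members were then higher, against 11.6% of 16281 genes. None was lower at an unadjusted p under 0.05 in either fit or with DESeq2. The members that did not pass in either fit were Tyms (thymidylate synthase), at 100 ± 52.2 against 49.7 ± 43.7 CPM (log2 fold change 0.81 ± 0.40 SE, adjusted p = 0.094), and Kif11, at 144 ± 114 against 89.6 ± 98.7 CPM (0.45 ± 0.33, adjusted p = 0.26).

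Among the S phase genes of that comparison, all 3 helicase genes that passed the filter were higher. Mcm6 was at 354 ± 246 CPM in progenitors and neuroblasts and 16.3 ± 15 CPM in the astrocyte lineage (log2 fold change 3.82 ± 0.38, adjusted p = 2.4e-11), Mcm5 was 3.40 ± 0.45 and Mcm7 3.11 ± 0.33 higher on the log2 scale. Rrm2, a subunit of ribonucleotide reductase, was 3.44 ± 0.50 higher and its partner Rrm1 1.62 ± 0.37 higher. Pcna was at 779 ± 431 against 124 ± 50.2 CPM (2.15 ± 0.27), and its partner 2810417H13Rik at 342 ± 318 against 4.22 ± 3.20 CPM (5.48 ± 0.49). All 3 cyclins and kinases or partners that passed the filter were higher as well, Ccna2 (cyclin A2) by 5.09 ± 0.50, Cks2 by 3.02 ± 0.53, and the kinase Pbk with 191 counts in progenitors and neuroblasts and 2 in the astrocyte lineage, a ratio of pooled CPM of 49 (95% counting interval 13.4 to 407). Cdca3, a gene whose product helps to degrade Wee1 so that mitosis can begin, was 4.75 ± 0.57 and Ube2c 3.28 ± 0.41 higher. Among the genes of the spindle, the kinetochore and cytokinesis, Racgap1 was at 318 ± 201 against 8.61 ± 8.15 CPM (4.57 ± 0.43), Tpx2 at 172 ± 111 against 10.1 ± 7.45 CPM (3.26 ± 0.46), Prc1 at 197 ± 188 against 25.7 ± 19 CPM (2.36 ± 0.42) and Cenpf at 286 ± 202 against 67.9 ± 38 CPM (1.71 ± 0.31). The ranges of the classes overlapped for Prc1 and Cenpf, though progenitors and neuroblasts were higher within each of the 5 experiments. Top2a had 367 counts in progenitors and neuroblasts and 3 in the astrocyte lineage, a ratio of pooled CPM of 62.7 (95% counting interval 21.3 to 306), and Mki67, the proliferation marker Ki-67, was at 366 ± 371 against 5.39 ± 5.80 CPM (5.38 ± 0.47). Hmgb2 (3.60 ± 0.33) and H2afz (2.61 ± 0.26) were higher too. Aurka, Cdca8, Bub1, Cdc20 and Nusap1 had no count in the astrocyte lineage; against a floor of 3 counts over the class, they were at least 8.38-, 24.3-, 12.1-, 14.7- and 9.91-fold higher.

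Other cell cycle genes, taken from lists of replication, mitosis and regulator genes, were tested beside the members in that comparison. The fit was that with the filter, which a gene can pass through the class where it is high, and 23.6% of all 4682 genes were higher. Of 39 other replication genes 11 were tested and 10 were higher, led by Uhrf1 (3.48 ± 0.55), which carries DNA methylation through replication, Lig1 (3.44 ± 0.49), the ligase of replication, and Nasp (3.01 ± 0.33), a histone chaperone. Of 56 other mitosis genes 17 were tested, 13 were higher, led by Ckap2, Cks1b and Cenpa (4.90 ± 0.57, 4.15 ± 0.61 and 3.59 ± 0.54), and 1, the tubulin gene Tubb4b, was lower (-0.70 ± 0.24, adjusted p = 0.014). Of 33 regulators 8 were tested and 5 were higher, led by Mycn (2.58 ± 0.42), Cdk4 (2.50 ± 0.26) and the inhibitor Cdkn2c (1.52 ± 0.38).

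Within the progenitor and neuroblast class, early progenitors were set against late neuroblasts, a comparison added after the values had been seen. Nearly every member was higher in early progenitors. Of the 32 members that passed the filter 31 were higher, against 9.12% of 5329 genes, and 39 of 40 with no filter, against 4.17% of 15259 genes (edgeR, n = 4 experiments). The median log2 fold change over all 40 genes with no filter was 3.89, against -0.03 over all genes tested. None was lower at an unadjusted p under 0.05 in edgeR or DESeq2. The exception was Tyms, at 127 ± 80.9 against 54.2 ± 27.3 CPM (0.93 ± 0.36, adjusted p = 0.056). Early progenitors had medians of 4686, 9484, 4734 and 13988 transcripts per cell in experiments 1 to 4, and late neuroblasts 3519, 8116, 5521 and 14736. Markers of astrocytes summed to 2114 to 5335 CPM in early progenitors and 1177 to 2223 CPM in late neuroblasts, with all 20 of 20 detected in both, and those of neural stem cells to 1005 to 1381 against 293 to 539 CPM; their part in the differences was not tested. No well of either cluster was flagged as a possible doublet, by markers of an unrelated class such as microglia or mature oligodendrocytes. The rule could not flag a mixture with astrocytes, neural stem cells, mature neurons or oligodendrocyte precursors, so it says nothing of those.

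The largest fold change was that of Cdca3. It was at 234, 195, 201 and 203 CPM in early progenitors of experiments 1 to 4, against 0, 0, 0 and 3.22 CPM in late neuroblasts. Its levels in early progenitors lay within a narrow range, and the groups did not overlap (6.60 ± 0.53, adjusted p = 1.6e-24); with 191 and 2 counts, the ratio of pooled CPM was 125 (95% counting interval 34.2 to 1040.4). Top2a was at 1030, 136, 487 and 440 CPM in early progenitors, against 0, 1.89, 13.4 and 16.1 CPM in late neuroblasts (5.05 ± 0.35). Cdc20, the activator of the anaphase promoting complex, had 83 counts in early progenitors and 2 in late neuroblasts, with means of 119 ± 53.7 and 0.875 ± 1.02 CPM and a ratio of pooled CPM of 54.4 (14.6 to 456). Cdca8 (borealin) was 5.20 ± 0.53, Ccna2 4.91 ± 0.41, Kif23 (a motor of cytokinesis) 4.70 ± 0.53 and Mki67 4.22 ± 0.34 higher. Cdk1 was at 374, 72.6, 127 and 181 CPM in early progenitors, against 0, 1.89, 0 and 12.9 CPM in late neuroblasts (4.21 ± 0.46). Of the other cyclins, kinases and partners that passed, Pbk was 4.99 ± 0.46, Ccnb1 (cyclin B1) 3.88 ± 0.43 and Cks2 3.70 ± 0.40 higher. Fam64a (4.91 ± 0.55), Tpx2 (4.03 ± 0.37) and Ube2c (3.12 ± 0.31) were higher as well.

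The helicase subunits, which act as 1 complex, had fold changes of different size. Mcm3 was at 172 ± 74.7 CPM in early progenitors and 1.75 ± 2.03 CPM in late neuroblasts (5.14 ± 0.52), whereas Mcm7 was at 468, 322, 445 and 399 CPM in early progenitors, against 98.1, 125, 107 and 134 CPM in late neuroblasts (1.59 ± 0.22). Both groups of Mcm7 values were tight and apart, and the late neuroblasts of experiment 5 had 196 CPM. Mcm2 (3.98 ± 0.43) and Mcm5 (3.90 ± 0.35) stood near Mcm3, and Mcm6 (2.65 ± 0.25) and Mcm4 (2.44 ± 0.36) nearer to Mcm7. These are fold changes of single genes, and differences between the genes were not tested. Among the genes of nucleotide supply, Tk1 (thymidine kinase) was at 95.3 ± 25.8 against 2.08 ± 3.04 CPM (4.24 ± 0.57), Rrm2 was 3.92 ± 0.35 and Rrm1 2.09 ± 0.30 higher. Of the clamp genes, 2810417H13Rik was 4.13 ± 0.34 higher, and Pcna was at 1077 ± 558 against 169.6 ± 43.2 CPM (2.24 ± 0.19). The smaller fold changes among the mitosis genes were those of Kif11 (1.02 ± 0.33, adjusted p = 0.015), Cenpf (1.49 ± 0.24), a large protein of the kinetochore, Racgap1 (2.11 ± 0.25), which acts at the midbody in cytokinesis, and Prc1 (2.53 ± 0.35), which bundles the midzone of the spindle. Without the experiment as a block, the adjusted p was 0.71 for Kif11, 0.15 for Cenpf and 0.062 for Prc1. The count of higher members was then 28, against 194 of 5329 genes. The call of Kif11 was also lost with DESeq2 (adjusted p = 0.15), with wells of 2000 or more transcripts (0.10) and without experiment 2 (0.17). The chromatin genes were both higher, Hmgb2 at 921 ± 342 against 94.3 ± 40.4 CPM (3.31 ± 0.21) and H2afz at 1881 ± 596 against 592 ± 297 CPM (1.81 ± 0.16).

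**Figure D3:**
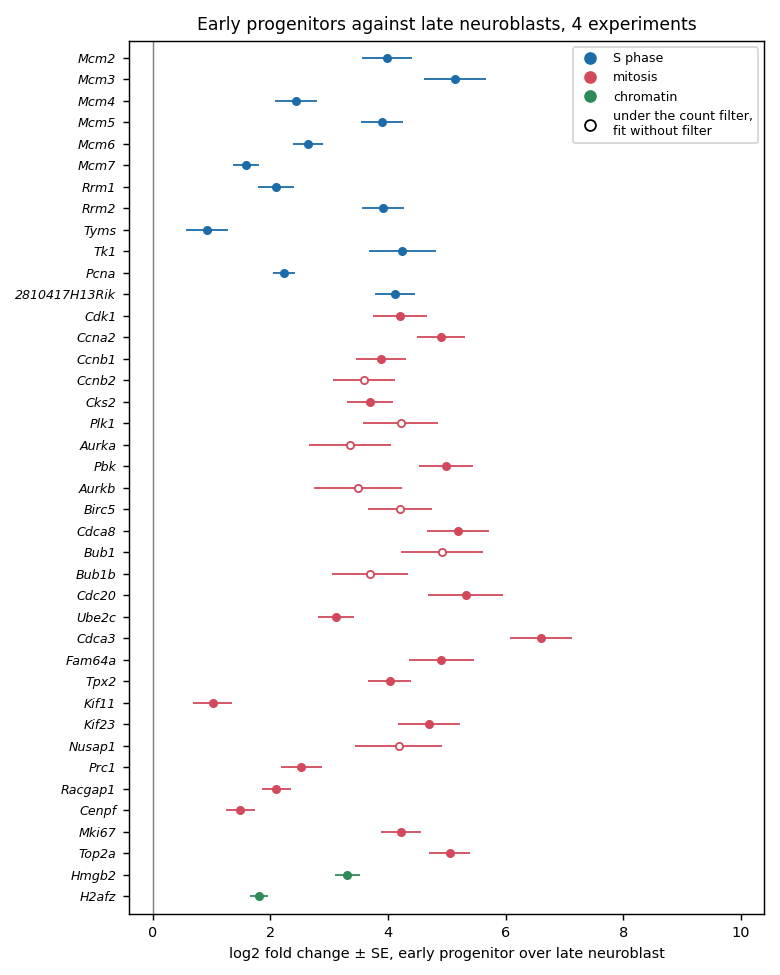
Log2 fold change with its standard error (x axis) of each member (y axis), early progenitors over late neuroblasts, from edgeR over 4 experiments; open circles are genes under the count filter, taken from the fit with no filter. All 40 values lie above 0, from 0.93 for Tyms to 6.60 for Cdca3.

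Genes of the other cell cycle lists were tested between these clusters in the fit with the filter, which a gene can pass through the cluster where it is high. Of all 5329 genes in that fit 9.12% were higher. Of the other replication genes 25 of 39 were tested and all 25 were higher, led by Hells (5.94 ± 0.72), a chromatin remodeller, Uhrf1 (4.41 ± 0.46) and Ung (4.22 ± 0.62), a glycosylase that removes uracil. Of the other mitosis genes 27 of 56 were tested and 26 were higher, led by Espl1 (separase), at 55.6 ± 7.92 CPM in early progenitors and with no count in late neuroblasts, Melk (5.67 ± 0.77) and Ckap2l (5.11 ± 0.55). Of the 33 regulators 15 were tested and 6 were higher, led by Foxm1 (3.65 ± 0.54), the transcription factor of the mitotic wave, Cdk2 (2.64 ± 0.42) and Rbl1 (2.23 ± 0.42); none of the regulators was lower, and the median log2 fold change of the 15 was 0.21. The number of members called depended on which experiments were used. With experiment 5 admitted at 3 or more cells, 19 members passed the filter and all 19 were higher, against 198 of 1805 genes. Without experiment 4 the count was 21 of 21, against 134 of 1902 genes.

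The next comparison set progenitors and neuroblasts against oligodendrocyte precursors, the lineages of the adult niche known to divide. Of the 13 members that passed the filter 12 were higher in progenitors and neuroblasts, against 19.7% of 3348 genes, and with no filter 39 of 40 were higher, against 7.54% of 16320 genes (edgeR, n = 5). None was lower at an unadjusted p under 0.05 in edgeR or DESeq2. Kif11 was the exception in both, at 144 ± 114 against 80.1 ± 61.8 CPM (0.71 ± 0.34, adjusted p = 0.090). Without experiment 3 the count was 32 of 33, against 920 of 7576 genes. Without experiment 5 it was 31 of 32, against 1121 of 7793 genes, since more genes then passed the filter. The class joins early progenitors and late neuroblasts. Late neuroblasts alone had an S phase sum of 521 ± 68.5 CPM, against 587 ± 106 CPM in precursors. Their mitosis sums were 485 ± 180 and 335 ± 171 CPM, or 207 ± 135 and 204 ± 150 CPM without Kif11 and Cenpf. These sums were not tested.

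Among the 13 members that passed the filter, the largest difference was in 2810417H13Rik, at 342 ± 318 CPM in progenitors and neuroblasts and 6.68 ± 8.01 CPM in oligodendrocyte precursors (4.89 ± 0.41, adjusted p = 2.8e-12). Hmgb2 was at 594 ± 290 against 23.3 ± 19 CPM (4.59 ± 0.37), Mki67 at 366 ± 371 against 9.47 ± 7.53 CPM (4.22 ± 0.44) and Racgap1 at 318 ± 201 against 12.5 ± 11.6 CPM (3.85 ± 0.39). Ube2c (3.20 ± 0.39), Cenpf (2.45 ± 0.32) and Prc1 (2.60 ± 0.61) were higher, though the call of Prc1 was lost without experiment 1 (0.84, adjusted p = 0.16) and without the block (adjusted p = 0.066). Mcm7 (2.07 ± 0.25), Mcm6 (1.87 ± 0.25), H2afz (1.78 ± 0.23), Pcna (1.74 ± 0.23) and Rrm1 (1.31 ± 0.31) differed by less. Bub1b, a kinase of the spindle checkpoint, had 66 counts in progenitors and neuroblasts and none in the 273 oligodendrocyte precursors, at least 17.0-fold higher against a floor of 3 counts over the class. It was under the filter, as were Ccnb1, Fam64a, Nusap1 and Cdc20, with 157, 117, 58 and 86 counts in progenitors and neuroblasts, against 2, 1, 1 and 2 in oligodendrocyte precursors; with no filter the fitted fold changes of these 5 genes exceeded that of 2810417H13Rik. The other lists held 6 replication genes tested of 39, 11 mitosis genes of 56 and 6 regulators of 33. All 6, 10 of 11 and all 6 were higher, against 19.7% of 3348 genes. Among them were Dut (1.85 ± 0.37), Cenpa (3.40 ± 0.45), Hmgn2 (3.28 ± 0.27), Smc4 (3.20 ± 0.34) and Mycn (2.71 ± 0.35).

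The proportion of S phase to mitosis transcripts was then compared between these lineages. The log2 ratio of the S phase sum to the mitosis sum, each with 10 CPM added, was -0.58, 0.09, -0.42, -0.45 and -0.35 in progenitors and neuroblasts of experiments 1 to 5, and 1.51, 1.19, 0.69, -0.30 and 1.40 in oligodendrocyte precursors. In each of the 5 experiments the progenitors and neuroblasts lay lower, with more mitosis transcripts for their S phase transcripts, by 2.09, 1.10, 1.11, 0.15 and 1.75. The mean difference was -1.24 ± 0.74 (SD, n = 5; p = 0.0625, exact sign-flip permutation test, two-sided), and 0.0625 is the smallest p that 5 experiments allow. Early progenitors differed from oligodendrocyte precursors by -1.19 ± 0.74 (p = 0.125, n = 4, the smallest possible), from late neuroblasts by -0.50 ± 0.54 (p = 0.25, n = 4), and late neuroblasts from oligodendrocyte precursors by -0.72 ± 0.91 (p = 0.1875, n = 5), in exact permutation tests of the same kind. Experiment 4, where the lineages were closest, had 6 oligodendrocyte precursors with a median of 18089 transcripts, against 3038 to 9211 in the other experiments. With Kif11 and Cenpf left out, the mean difference was -1.90, and taken as a mean over members in place of sums it was -0.62. An S phase sum above the mitosis sum was not particular to precursors. By class means, microglia had 622 against 408 CPM and mature oligodendrocytes 473 against 298 CPM. Late neuroblasts had 521 against 485 CPM and astrocytes 290 against 248 CPM, whereas neural stem cell-like cells had 371 against 409 CPM.

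**Figure D4:**
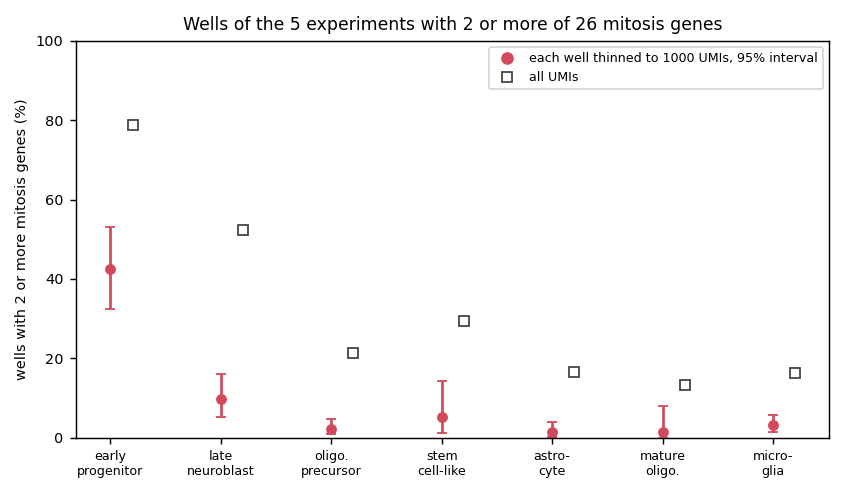
Share of niche wells (y axis, percent) with at least 2 of the 26 mitosis genes by class (x axis). Filled circles are wells thinned to 1000 UMIs each, with 95% exact binomial intervals that cover counting error only, and open squares are the same wells with all UMIs; early progenitors stand at 42.6% and 78.7%.

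Cells differ in depth, so single wells were also compared after each had been thinned to 1000 UMIs. Of 94 early progenitor wells 40 (42.6%, 95% exact binomial interval 32.4 to 53.2%) then held at least 2 mitosis genes, against 13 of 134 late neuroblast wells (9.70%, 5.27 to 16.0%). Oligodendrocyte precursors had 6 of 273 such wells (2.20%), microglia 9 of 289 (3.11%), neural stem cell-like cells 3 of 58 (5.17%), mature oligodendrocytes 1 of 68 (1.47%) and astrocytes 3 of 215 (1.40%, with 3 shallower wells left out). With all UMIs these shares were 78.7% in early progenitors, 52.2% in late neuroblasts, 21.2% in oligodendrocyte precursors and 13.2% in mature oligodendrocytes, cells that do not divide. The median depths of these classes were 9118, 7769, 5501 and 5181 transcripts, in the same order, and Kif11 and Cenpf made up most mitosis counts of mature oligodendrocytes. For S phase genes, 56.4% of thinned early progenitor wells held at least 2, against 8.96% of late neuroblasts and 11.4% of oligodendrocyte precursors, beside 7.35% in mature oligodendrocytes. By experiment, thinned early progenitor wells with at least 2 mitosis genes were 5 of 8, 12 of 37, 2 of 11, 18 of 35 and 3 of 3. Late neuroblasts gave 1 of 5, 3 of 65, 1 of 14, 8 of 45 and 0 of 5.

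In all, 107 of the 1285 niche wells (8.33%) held 5 or more mitosis genes, and 111 held 3 or 4. Early progenitors made up 56 of the 107, late neuroblasts 22, oligodendrocyte precursors 10, microglia 6, blood and lymphoid cells 4, astrocytes 3, and a neural stem cell-like cell and a fibroblast 1 each, with 4 in a cluster without a name. The 107 wells were deeper than the rest, with medians of 13805 against 3828 transcripts. Since they were picked by their mitosis genes, a high share of mitosis counts there is fixed by the choice. They held 76.8% of all mitosis counts of the niche, 48.9% of the S phase counts and 54.9% of the chromatin counts, against 19.4% of the counts of all genes. Single mitosis genes differed in how far they kept to such wells. Cdc20 had 94.7% of its counts in wells with 5 or more other mitosis genes, Fam64a 94.5%, Pbk 94.4%, Cdca3 94.4% and Top2a 93.2%. Cenpf had 42.7% there and Kif11 27.8%, below any other mitosis gene, and the S phase genes Tyms and Pcna had 33.8% and 37.9%.

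The 94 early progenitor wells differed among themselves. Of these, 54 held 5 or more mitosis genes together with 3 or more S phase genes, 27 held 3 or more S phase genes but fewer than 5 mitosis genes, 2 the reverse and 11 neither. The 27 wells had medians of 1250 CPM of S phase and 302 CPM of mitosis transcripts, at nearly the same median depth as the 54 wells with both (9941 against 10069 transcripts). The 11 wells with neither were shallower, at a median of 3351 transcripts, as were the 2 with the reverse, at 3012. The 54 had medians of 4280 CPM of S phase and 6803 CPM of mitosis transcripts. Across the 94 wells, which share libraries and differ in depth, a mitosis gene's CPM followed the sum of the other mitosis genes with Spearman correlations of 0.46 to 0.84 (median 0.66) and the S phase sum with 0.07 to 0.68 (median 0.30). An S phase gene followed the other S phase genes at 0.52 to 0.76 (median 0.62) and the mitosis sum at 0.01 to 0.72 (median 0.31). Mcm2 (0.01) and Mcm6 (0.14) had the lowest correlations with the mitosis sum among the S phase genes, and 2810417H13Rik the highest (0.72). Among the mitosis genes Top2a had the highest with the S phase sum (0.68) and Ube2c the lowest (0.07). In sparse counts these values are a description only.

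Oligodendrocyte precursors, known to divide in the adult, were then set against mature oligodendrocytes, a stage of the same lineage that does not divide. The precursor class joins a cluster led by Cspg4, Pdgfra and C1ql1 (346 cells over all libraries) with one led by Bmp4, Fyn, Bcas1 and Gpr17 (16 cells). Whether all these cells are able to divide was not tested. Few members had enough counts to test: 2 of 40 passed the filter, and 1 of them, H2afz, was higher, against 25.5% of 2206 genes (edgeR, n = 3 experiments). H2afz was at 375, 317 and 296 CPM in oligodendrocyte precursors of experiments 1, 3 and 5, against 191, 145 and 75.8 CPM in mature oligodendrocytes (1.10 ± 0.33, adjusted p = 0.0048). The groups did not overlap, but the call was lost with DESeq2 (adjusted p = 0.073), with no filter (0.16) and without any 1 of the experiments (0.14 to 0.23). Pcna, the other gene tested, was at 288, 136 and 197 CPM in precursors and 377, 238 and 379 CPM in mature oligodendrocytes (-0.61 ± 0.31, adjusted p = 0.10). With no filter 2 of 39 members with a count were higher, against 7.56% of 14026 genes, and both were helicase subunits. Mcm6 was at 98.7 ± 32 against 3.89 ± 6.73 CPM (3.16 ± 0.88, adjusted p = 0.0040) and Mcm7 at 73.8 ± 32.3 against 2.59 ± 4.49 CPM (3.14 ± 1.01, adjusted p = 0.019); the mature cells had 3 and 2 counts, and the ratios of pooled CPM were 10.9 and 11.3 (95% counting intervals 3.6 to 54.3 and 2.97 to 96.2).

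None of the mitosis genes passed the test between these stages. Of the 26, 20 had no count in the 68 mature oligodendrocytes, among them Cdk1, Ccna2, Ccnb1, Plk1, Aurka, Cdc20 and Top2a, and Bub1b had none in either stage. Kif11 and Cenpf made up 51 and 36 of the 94 mitosis counts of mature oligodendrocytes (92.6%), against 27.4% in precursors and 10.2% in early progenitors. Likewise Pcna made up 73.5% of the S phase counts of mature oligodendrocytes, against 36.0% in precursors. Of the other lists, Anln was far lower in precursors, at 1.02 ± 1.77 against 461 ± 105 CPM (-7.50 ± 0.57); it is known as a gene of cytokinesis, and mature oligodendrocytes use it in myelin. Hmgn2 was lower (-1.14 ± 0.30) and Cdk4, the kinase of cyclin D, higher in precursors (1.93 ± 0.46), among 7 mitosis genes and 1 regulator tested; no other replication gene had enough counts.

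Against microglia, oligodendrocyte precursors were not the higher class. Of the 4 members that passed the filter none was higher and 2 were lower in oligodendrocyte precursors, against backgrounds of 31% higher and 28.7% lower among 3098 genes (edgeR, n = 5); none of the 4 was higher at an unadjusted p under 0.05, nor with DESeq2. Hmgb2 was at 7.66, 28.3, 45.3, 35.1 and 0 CPM in precursors of experiments 1 to 5, against 82.8, 77.3, 124, 152 and 104 CPM in microglia. The groups did not overlap (-2.48 ± 0.40, adjusted p = 4.3e-06). Pcna was at 185 ± 62.5 against 337 ± 56.1 CPM (-1.08 ± 0.24, adjusted p = 0.00036). With no filter 5 of 40 members were lower, against 13.1% of 16024 genes, namely Mcm3 (-1.84 ± 0.46), Tyms (-1.09 ± 0.41), Pcna, Cks2 (-2.15 ± 0.46) and Hmgb2, and 1 was higher, Mcm6 (1.08 ± 0.40, adjusted p = 0.028), against 16.4%. With no filter the shares called thus lay below those of all genes in the higher direction and near them in the lower; with the filter, 2 of 4 is too few to set against the background. Without experiment 1 the count with the filter was 1, without experiment 4 it was 4 (3 lower and 1 higher), and without 20 possible doublets it was 1. Over all genes, 788 were higher and 723 lower of 2853 without experiment 1. Without experiment 4 these were 1471 and 1351 of 5154, and without possible doublets 889 and 805 of 2764. Of the other cell cycle genes, Cdk4 (1.43 ± 0.25), Nasp (1.03 ± 0.36), Tubb4b (0.91 ± 0.31) and H2afv (0.89 ± 0.32) were higher in precursors, and the antiproliferative genes Btg2 (-5.43 ± 0.42), Cdkn1a (-4.90 ± 0.41) and Btg1 (-3.61 ± 0.31) were lower.

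Neural stem cell-like cells against astrocytes, a comparison added after the values had been seen, gave no call among the members. Of the 3 that passed the filter (Pcna, Kif11 and H2afz) none was higher, against 3.67% of 2616 genes, and of 34 with a count in the fit with no filter none was higher, against 0.264% of 14419 genes (edgeR, n = 4); none was lower. DESeq2 gave none either, and 1 member had an unadjusted p under 0.05 in each of these fits. That member in the filtered fit was Kif11, at 175 ± 168 against 69.7 ± 81.7 CPM (1.30 ± 0.47, adjusted p = 0.086), which passed with wells of 2000 or more transcripts (adjusted p = 0.032) and without possible doublets (0.039). Mcm7 was at 41.3 ± 16.3 against 15.6 ± 7.03 CPM, higher in all 4 experiments, with 15 and 9 counts (adjusted p = 0.99 with no filter). Counts of mitosis genes were few in the 58 stem cell-like wells: 11 of 26 genes had no count and 21 had 3 or fewer. Scaled to CPM, their mitosis sum was 409 ± 251 CPM (n = 4), against 248 ± 125 CPM in astrocytes (n = 5). Without Kif11 and Cenpf the sums were 156 ± 93.3 and 113 ± 46.9 CPM. Of the other lists, H2afv (1.22 ± 0.35), Hmgn2 (1.03 ± 0.30) and Btg2 (1.60 ± 0.45) were higher in the stem cell-like group, and none was lower.

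Kif11 and Cenpf differed from the other mitosis genes in where they were found, and Kif11 differed between experiments in nearly the same order in every class. Its level in experiment 3 was 275 CPM in early progenitors, 268 in late neuroblasts, 159 in oligodendrocyte precursors, 404 in neural stem cell-like cells, 187 in astrocytes, 435 in mature oligodendrocytes and 234 in microglia. In experiment 2 it was 20.3 CPM in early progenitors, 3.78 in late neuroblasts, 4.93 in precursors, 10.8 in stem cell-like cells and 0 in astrocytes and microglia. Experiment 3 was the highest in 7 of 7 classes, and experiment 2 the lowest in 5 of the 6 classes it had. Outside the early progenitors, 68 of 144 wells of experiment 3 held Kif11 (47.2%), against 12 of 344 in experiment 2 (3.49%), 45 of 427 in experiment 1, 48 of 106 in experiment 4 and 33 of 170 in experiment 5. The same wells of experiment 3 held Top2a in 1 of 144 cases. The median depths of those wells were 3519, 5916, 3855, 12361 and 1924 transcripts in experiments 1 to 5, so experiment 4, the deepest, held Kif11 in about as large a share of wells (45.3%) as experiment 3. In CPM, Kif11 stood at 35.3, 7.23, 276, 67.9 and 102 in the same wells; the part of depth in these values was not tested. The 3 plates of experiment 3 gave 506, 226 and 212 CPM, and the plates of experiment 2 gave 8.04 and 5.55 CPM, so the level was shared by plates of one experiment.

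Cenpf was lowest in experiment 2 in 6 of 6 classes and highest in experiment 3 in 4 of 7. In early progenitors it was at 796, 134, 328 and 380 CPM in experiments 1 to 4, and in mature oligodendrocytes at 46.7, 217 and 75.8 CPM in experiments 1, 3 and 5. In the mm10 assembly with GENCODE vM21, Kif11 lies at chr19:37376403-37421859 on the plus strand and overlaps AC137605.4 on the same strand and AC137605.6 on the other; Cenpf lies at chr1:189640606-189688086 on the minus strand and overlaps Gm37239 on the other strand. Other members overlap annotated genes too, among them Top2a (Gm23451 on the same strand and Gm26394 on the other), Mcm7, Prc1 and Mki67. The labels do not give the annotation or the strand setting of the counting, so counts of such overlapping genes cannot be told apart, and their part in these levels was not tested. With both genes left out, the other 24 mitosis genes summed to 4709 ± 2362 CPM in early progenitors (n = 4), 237 ± 103 in microglia (n = 5), 207 ± 135 in late neuroblasts (n = 5), 204 ± 150 in oligodendrocyte precursors (n = 5), 156 ± 93.3 in stem cell-like cells (n = 4), 113 ± 46.9 in astrocytes (n = 5) and 16.4 ± 22 in mature oligodendrocytes (n = 3). On this sum the ranges of late neuroblasts (0 to 343 CPM), precursors (49.3 to 456 CPM) and microglia (113 to 342 CPM) overlapped.

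**Figure D5:**
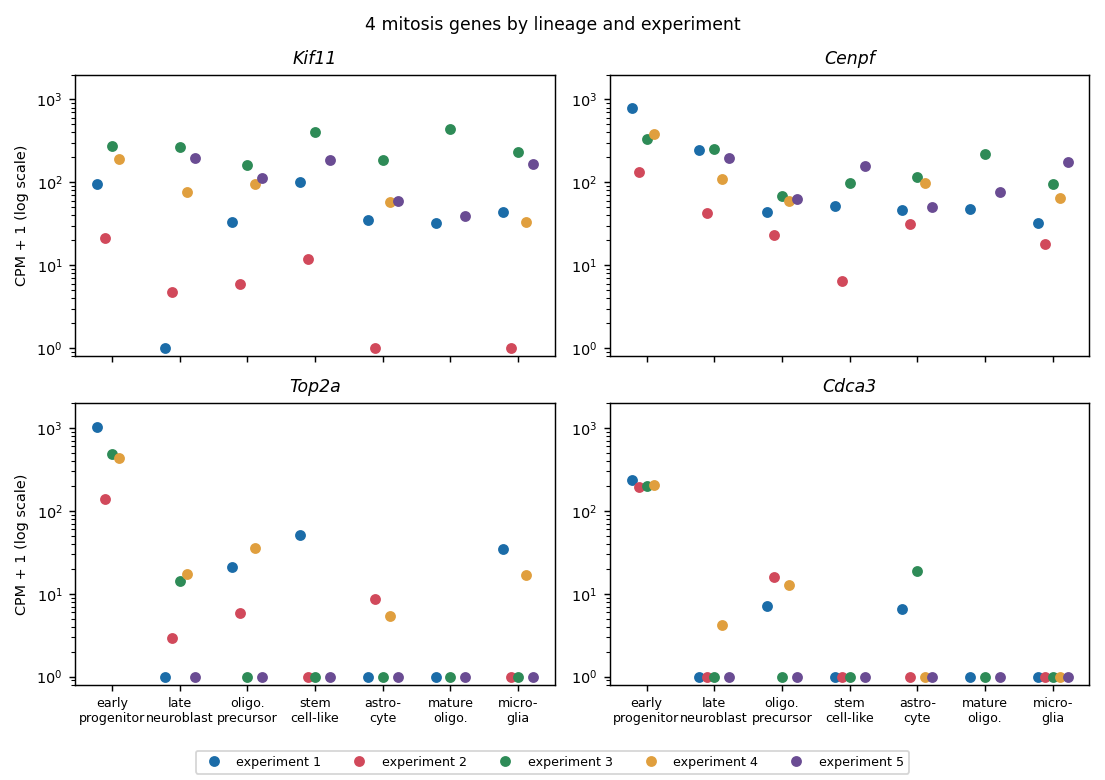
CPM + 1 (log axis) of Kif11, Cenpf, Top2a and Cdca3 in each class; each point is 1 experiment with at least 5 cells of that class. Top2a and Cdca3 lie above 100 CPM in early progenitors alone, while Kif11 spreads from 0 to 435 CPM within the other classes, with experiment 3 on top in each.

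The old library and the Nestin-GFP library have 1 value per class and allow no test. The Nestin-GFP library had 9 early progenitors, with 979 CPM of mitosis transcripts (51 counts, 95% exact Poisson interval 729 to 1287) and 2649 CPM of S phase transcripts (2225 to 3129). The old library had 2 early progenitors, with 2072 CPM of mitosis (1618 to 2614) and 4903 CPM of S phase transcripts (4189 to 5703). The 4 niche experiments spanned 2634 to 8938 CPM of mitosis and 2489 to 5920 CPM of S phase transcripts. Mitosis transcripts in both libraries thus lay below all niche experiments, and S phase transcripts within their range; intervals cover counting error only, and 9 and 2 cells are few. Of single genes, Top2a was at 211 CPM in the Nestin-GFP and 613 CPM in the old early progenitors, against 136 to 1030 CPM in the niche, and Cdca3, Ccnb1, Ccnb2, Cdc20, Bub1b, Kif23 and Nusap1 had no count in early progenitors of either library. The early share of the progenitor and neuroblast class was 9 of 42 cells in the Nestin-GFP library and 2 of 12 in the old library, against 94 of 228 in the niche (8 of 13, 37 of 102, 11 of 25, 35 of 80 and 3 of 8 by experiment). Oligodendrocyte precursors had 242 CPM of S phase transcripts in the Nestin-GFP library (200 to 291) and 445 CPM in the old library (351 to 557), against 471 to 723 CPM in the niche experiments. These sums do not speak for the mitosis genes. In Nestin-GFP precursors Mki67 was at 31.3 CPM, above the 0 to 19.7 CPM of the niche. Top2a was at 4.18 CPM there, within the 0 to 35.1 CPM of the niche. In old microglia the sums were 466 CPM of S phase and 217 CPM of mitosis transcripts, against 511 to 826 and 168 to 577 CPM in niche microglia.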

How the data were processed

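The members and the other gene lists were chosen with earlier results of these data known. The authors deposited, for each library, a table with the estimated count of each gene's transcripts in each well, corrected by the authors for UMI collisions, as the values show; reads had been mapped with BWA 0.6.2-r126 and the build was mm10, per the submitters' processing notes, and no source names the counting tool. Per the labels, the raw reads deposited for experiment 2 come from sequencing the original libraries again, and whether its count tables do is not stated. Inverting the correction for a UMI pool of 256 (28 libraries) or 4096 (5 libraries) gave whole UMI numbers for at least 99.3% of values. Well numbers are the same fixed set in every library, so shared barcodes come from the design of the plates. Wells with at least 1000 transcripts were kept, 1738 in all, with median depths of 1943 to 12392 transcripts between units. Clusters (Leiden, resolution 1, 20 principal components) were drawn on 180 marker genes with scanpy 1.11.5, and class names were rebuilt from those markers. Doublets were not removed; 20 of 1285 niche wells (1.56%) held 3 or more markers of a second class with at least 5 transcripts each. Estimated counts were rounded, summed per experiment and class (at least 5 cells), and tested with edgeR 4.0.16 (quasi-likelihood, TMM, filterByExpr, Benjamini-Hochberg over all genes tested) in R 4.3.3, with the experiment as a block. The experiment number of the labels pairs the classes, since they come from the same sort; correlations of the deviations of paired sums were 0.049 to 0.60. Single values were compared with an exact two-sided permutation test (scipy 1.17.1). Named are all members that passed in the fit with the filter, those with most counts that did not, and from the other lists the 3 largest fold changes in each direction. On simulated data, 97 to 100% of genes with a 4-fold change and 44 to 89% with a 2-fold change were recovered. The simulation used only genes that passed the filter and had no differences between experiments. These rates therefore do not cover members under the filter. DESeq2 1.42.0, other filters, depths, clusterings and each experiment left out were tried as alternatives. Intervals and floors cover counting error only.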

Additional observations from a re-analysis of the deposited data

Results flagged for a closer look

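Sums of S phase, mitosis and chromatin genes in 5 classes and the S phase minus mitosis difference gave 16 groups of 4 or 5 experiments, and 3 of these had 1 experiment far from the others by Dixon's criterion, which chance meets in about 1 in 20 groups. All 3 are sums of the chromatin genes Hmgb2 and H2afz. In early progenitors, experiment 1 stood at 4188.2 CPM, against a mean of 2802 ± 926 CPM over its 4 experiments. In the astrocyte lineage, experiment 4 stood at 375.66 CPM, with a mean of 217 ± 91.3 CPM. In microglia, experiment 4 stood at 953.05 CPM, with a mean of 470 ± 275 CPM. Experiment 4 was the deepest, at a median of 12392 transcripts; the part of depth in these values was not tested.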

How the results depend on the processing

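The direction of every member called in a comparison held under all alternatives run for it, but counts of called members moved with the filter and the experiments used. With no filter, members called were 38 (progenitors and neuroblasts against astrocyte lineage), 2 (oligodendrocyte precursors against mature oligodendrocytes), 39 (progenitors and neuroblasts against oligodendrocyte precursors) and 6 (oligodendrocyte precursors against microglia). Over all genes, 11.6%, 7.56% and 7.54% were higher in the fits other than that against microglia, which had 16.4% higher and 13.1% lower. Precursors against mature oligodendrocytes gave 0 with DESeq2 and 2 with clusters from variable genes. Progenitors and neuroblasts against precursors gave 31 with at least 10 cells, and early against late gave 19 with at least 3 cells. Over all genes, DESeq2 called 375 higher and 349 lower of 2206, and clusters from variable genes 520 and 487 of 2248. The 10-cell fit called 1033 higher and 1392 lower of 8002, and the 3-cell fit 198 and 207 of 1805. Precursors against microglia gave 4 with at least 10 cells and 1 each with 2000 transcripts, clusters from variable genes and no possible doublets. Over all genes, at least 10 cells gave 1471 higher and 1351 lower of 5154, and 2000 transcripts 865 and 803 of 2876. Clusters from variable genes gave 984 and 846 of 2937, and no possible doublets 889 and 805 of 2764. Stem cell-like cells against astrocytes gave 1 with 2000 transcripts and 1 without possible doublets, where 77 of 2104 and 99 of 2612 genes were higher. Leaving out 1 experiment gave 16 to 25, 0 to 1, 11 to 32, 1 to 4, 21 to 38 and 0 to 0 in the order astrocyte lineage, mature oligodendrocytes, precursors, microglia, early against late and stem cell-like. In that order, genes tested were 4261 to 5462, 2379 to 4445 and 2064 to 7793, then 2834 to 5154, 1902 to 7559 and 2164 to 3286. Genes higher were 701 to 1242, 361 to 758 and 382 to 1121, then 785 to 1471, 134 to 595 and 50 to 73. For microglia 723 to 1351 genes were lower. Without the replicate block the counts were 20, 1, 11, 2, 28 and 0. Over all genes, 945 of 4682, 426 of 2206 and 525 of 3348 were then higher. For microglia 829 were higher and 768 lower of 3098. In the early against late and stem cell-like fits 194 of 5329 and 22 of 2616 were higher. The S phase minus mitosis difference was -1.03 to -1.51 with 1 experiment left out (smallest p possible 0.125), -0.62 as a mean over members and -1.90 without Kif11 and Cenpf. The mitosis sum of old early progenitors was 1443 CPM at 2000 transcripts. The uncalled H2afz changed sign against microglia with at least 10 cells (log2 fold change 0.0201) and clusters from variable genes (0.1386), with -0.3159 to 0.0201 when 1 experiment was left out, and between stem cell-like cells and astrocytes with clusters from variable genes (0.0773), with -0.464 to 0.2212 when 1 experiment was left out. Early against late had no value under clusters from variable genes and at resolution 0.6. The causes were not tested.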
